A study of Mus musculus with 18 samples.

Results

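The 6 genes Gria3, Pilra, Slco4c1, Slc25a18, Mctp1 and Dtx1, none of them a usual marker of a marrow lineage, were followed across mice with a mammary tumour transgene and their controls. These 6 genes, of the 19505 named genes on the array, were listed because their signals in NeuT mice differed from those in BALB/c mice in the same direction at 12 and at 24 weeks of age. The difference between NeuT and BALB/c mice at each age is therefore the measure that chose them, and it is given below as a description, without a test. What the choice did not use was tested: the difference between ages averaged over NeuT and BALB/c mice, and variation between mice of one group. Relatives and pathway genes of each member were tested too, but between NeuT and BALB/c in the same mice. Those tests are therefore not independent of the comparisons that chose the members.

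Each of 18 arrays held RNA of 1 mouse. The groups were 5 NeuT mice of 12 weeks, labelled as an early stage of breast tumour development, 5 BALB/c control mice of 12 weeks, 4 NeuT mice of 24 weeks, labelled as a late stage, and 4 BALB/c control mice of 24 weeks. NeuT mice carry an activated rat Erbb2 (neu) oncogene on the BALB/c background under a mammary tumour virus promoter, which is active mainly in mammary epithelium, and what the tumours do cannot be told apart here from what the transgene itself does. Age likewise cannot be told apart from the handling of the mice of each age. The cells came from femurs and tibias, were depleted with magnetic beads of cells bearing CD45, Ter119, CD11b, CD11c, CD3, Gr1 or B220, and are labelled as mesenchymal cells of the bone marrow that lacked CD45 and bore CD29 and CD44 in flow cytometry.

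The label was checked against defining markers. Ptprc, which encodes CD45, read between 11.70 and 12.45 on the log2 scale over the 18 arrays, and the granule genes Elane and Mpo read between 13.45 and 14.24, all above 10.46, the 95th percentile of the negative control probe sets. The stromal markers Pdgfrb, Col1a2 and Cxcl12 read between 7.96 and 9.45, below that percentile. Of the 6 genes, Pilra, Slco4c1, Slc25a18, Mctp1 and Dtx1 also stayed below it on all 18 arrays, and Gria3 was above it on 2. The transcripts measured thus include those of blood-forming cells, and in such bulk RNA fewer cells of a type and less RNA per cell cannot be told apart. Array medians lay between 8.43 and 8.56. The 95th percentile of the negative controls is far above the median gene (8.50), so a signal below it does not show that a transcript is absent. By mean signal Gria3 was above 74.6% of all genes, Dtx1 above 63.5% and Slc25a18 above 57.9%. Pilra was above 43.0%, Slco4c1 above 39.9% and Mctp1 above 38.9%. The 3 arrays that correlated least with the rest were NeuT replicate 4 of 12 weeks, BALB/c replicate 3 of 24 weeks and NeuT replicate 1 of 24 weeks, and values without them are given where they bear on a result.

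The 6 genes act in different places in a cell. Gria3 encodes a subunit of the AMPA receptors, ligand-gated cation channels that open on binding glutamate and are best known from excitatory synapses. Pilra encodes an inhibitory receptor of myeloid cells that carries immunoreceptor tyrosine-based inhibition motifs, and it is paired with activating receptors encoded next to it. Slco4c1 encodes an organic anion transporter of the plasma membrane, known from the kidney for the uptake of steroid conjugates and cardiac glycosides. Slc25a18 encodes a carrier that moves glutamate across the inner mitochondrial membrane. Mctp1 encodes a membrane protein with several calcium-binding C2 domains. Dtx1 encodes Deltex, a ubiquitin ligase that binds the intracellular part of Notch, and in lymphocytes it is a known target of Notch signalling.

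The RefSeq promoter table (GRCm38.p6) held an entry for 5 of the 6 genes, each running from 250 bases before the start to 50 bases after it. The windows printed are the 3, of Pilra, Slco4c1 and Dtx1, that hold a match to one of the motifs searched. All are on the minus strand and read 5′ to 3′, for Pilra chr5:137836229-137836528, for Slco4c1 chr1:96872122-96872421 and for Dtx1 chr5:120711620-120711919. Capitals mark matches on either strand to 4 motifs of factors known from blood cells: GAGGAAGT (PU.1-type), TTGCNNAA (C/EBP-type), TGGGAA (RBPJ-type) and CCCNNGGG (EBF1-type).
Pilra: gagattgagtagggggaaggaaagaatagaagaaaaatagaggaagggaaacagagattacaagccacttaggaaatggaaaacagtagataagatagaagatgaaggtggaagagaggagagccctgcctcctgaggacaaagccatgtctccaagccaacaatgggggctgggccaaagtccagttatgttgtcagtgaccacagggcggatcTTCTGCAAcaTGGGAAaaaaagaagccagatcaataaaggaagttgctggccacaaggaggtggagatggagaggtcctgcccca
Slco4c1: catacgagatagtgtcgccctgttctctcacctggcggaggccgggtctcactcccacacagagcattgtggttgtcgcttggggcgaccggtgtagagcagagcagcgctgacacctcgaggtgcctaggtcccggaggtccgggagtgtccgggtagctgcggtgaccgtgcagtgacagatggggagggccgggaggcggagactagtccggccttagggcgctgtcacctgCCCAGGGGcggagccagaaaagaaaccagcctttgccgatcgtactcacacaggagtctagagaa
Dtx1: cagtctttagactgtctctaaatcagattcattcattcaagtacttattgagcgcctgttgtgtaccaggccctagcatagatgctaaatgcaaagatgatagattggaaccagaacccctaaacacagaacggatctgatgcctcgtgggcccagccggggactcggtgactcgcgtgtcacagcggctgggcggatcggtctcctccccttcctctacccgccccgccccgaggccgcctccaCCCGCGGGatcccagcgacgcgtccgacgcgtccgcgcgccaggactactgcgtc

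Counting the base just before the start as -1, the Pilra window held a C/EBP-type match that begins at -35, read on the opposite strand, and an RBPJ-type match that begins at -25. The Slco4c1 window held an EBF1-type match that begins at -15, and the Dtx1 window held one that begins at -5. None of these matches overlap. Among all 27025 promoters of the table, 10.8% held the C/EBP-type letters, 25.5% the RBPJ-type, 13.4% the EBF1-type and 3.28% the PU.1-type. The windows of Mctp1 and Slc25a18 held none of the 4. These are matches of letters, not measured binding sites. GC content was 48.0% for Pilra, 63.0% for Slco4c1 and 59.3% for Dtx1.

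Of the 6 genes, 4 (Gria3, Pilra, Slco4c1 and Mctp1) were higher in NeuT mice at both ages, by 1.67- to 2.12-fold at 12 and 24 weeks together, and Slc25a18 and Dtx1 were lower. Of all 19505 genes, 85 (0.436%) passed an adjusted p of 0.05 in one direction at both ages, 83 of them higher and 2 lower (0.426% and 0.0103%). The members were picked on these comparisons, so nothing is read from their share. At one age alone, 3.84% of all genes passed at 12 weeks (3.15% higher and 0.687% lower) and 1.4% at 24 weeks (1.18% higher and 0.22% lower).

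Gria3, the AMPA receptor subunit (transcript cluster TC0X00000388.mm.2), read 10.24, 10.21, 10.31, 10.42 and 9.95 in NeuT mice of 12 weeks, against 9.48, 9.29, 9.60, 9.26 and 9.57 in BALB/c mice of that age. At 24 weeks the signals were 10.79, 10.02, 10.05 and 10.68 in NeuT mice, against 9.65, 9.86, 9.12 and 9.94 in BALB/c mice. At both ages every NeuT mouse was above every BALB/c mouse. The group means were 10.23 ± 0.17 in NeuT mice and 9.44 ± 0.16 in BALB/c mice at 12 weeks (SD, n = 5 each), a difference of 0.79 on the log2 scale (SE 0.15). The 24-week means were 10.39 ± 0.40 in NeuT mice and 9.64 ± 0.37 in BALB/c mice (SD, n = 4 each), a difference of 0.74 (SE 0.17). Gria3 was 1.72-fold higher at 12 weeks and 1.67-fold higher at 24 weeks, and its SD was larger at 24 than at 12 weeks in both NeuT and BALB/c mice. Without the 3 least correlated arrays the differences were 0.74 at 12 weeks and 0.44 at 24 weeks.

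Pilra, the inhibitory receptor (transcript cluster TC0500003463.mm.2), read 8.41, 8.68, 8.71, 9.37 and 7.64 in NeuT mice of 12 weeks, against 7.63, 7.70, 8.03, 7.87 and 7.48 in BALB/c mice. NeuT replicate 5 lay among the BALB/c mice, so that the groups overlapped, and NeuT replicate 4 was the highest of all. At 24 weeks Pilra read 8.94, 7.92, 8.70 and 8.85 in NeuT mice, against 7.75, 7.60, 7.61 and 7.70 in BALB/c mice, and the groups did not overlap. The means at 12 weeks were 8.56 ± 0.62 in NeuT mice and 7.74 ± 0.22 in BALB/c mice (SD, n = 5 each), a difference of 0.82 (SE 0.21) or 1.77-fold. The 24-week means were 8.60 ± 0.47 in NeuT mice and 7.66 ± 0.07 in BALB/c mice (SD, n = 4 each), a difference of 0.94 (SE 0.24) or 1.92-fold. The spread among NeuT mice was wider than among BALB/c mice at both ages. BALB/c mice read 7.48 to 8.03 at 12 weeks and 7.60 to 7.75 at 24 weeks, not far above 7.35, the median of the negative controls. Their narrow spread and the fold changes are therefore uncertain.

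Slco4c1, the organic anion transporter (transcript cluster TC0100002856.mm.2), read 8.22, 8.30, 8.31, 8.94 and 7.77 in NeuT mice of 12 weeks, against 7.75, 7.25, 7.77, 7.68 and 7.40 in BALB/c mice. The lowest NeuT mouse, replicate 5, was barely above the highest BALB/c mouse. At 24 weeks the signals were 8.93, 8.15, 8.52 and 8.52 in NeuT mice, against 7.50, 7.55, 7.86 and 7.38 in BALB/c mice, with no overlap. Means at 12 weeks were 8.31 ± 0.42 in NeuT mice and 7.57 ± 0.23 in BALB/c mice (SD, n = 5 each), a difference of 0.74 (SE 0.16) or 1.67-fold. At 24 weeks they were 8.53 ± 0.32 in NeuT mice and 7.57 ± 0.20 in BALB/c mice (SD, n = 4 each), a difference of 0.96 (SE 0.18) or 1.94-fold. Of the 18 arrays 1, from a BALB/c mouse of 12 weeks, read below 7.35, the median of the negative controls.

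Slc25a18, the mitochondrial glutamate carrier (transcript cluster TC0600001354.mm.2), was lower in NeuT mice, with 8.38, 8.58, 8.73, 8.67 and 9.10 at 12 weeks, against 9.64, 9.79, 9.18, 9.27 and 9.14 in BALB/c mice. NeuT replicate 5 came close to the lowest BALB/c mouse without reaching it. The 24-week signals were 8.12, 8.75, 8.52 and 7.96 in NeuT mice, against 9.02, 9.32, 9.31 and 9.39 in BALB/c mice, and again no NeuT mouse reached the BALB/c range. The means at 12 weeks were 8.69 ± 0.27 in NeuT mice and 9.40 ± 0.29 in BALB/c mice (SD, n = 5 each), a difference of -0.71 (SE 0.15) or 0.611-fold. At 24 weeks they were 8.34 ± 0.36 in NeuT mice and 9.26 ± 0.16 in BALB/c mice (SD, n = 4 each), a difference of -0.92 (SE 0.17) or 0.528-fold.

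Mctp1, the C2-domain protein (transcript cluster TC1300000928.mm.2), read 8.30, 8.71, 8.39, 8.58 and 8.22 in NeuT mice of 12 weeks, against 7.49, 7.15, 7.31, 7.25 and 7.56 in BALB/c mice. At 24 weeks it read 8.69, 8.06, 8.36 and 8.63 in NeuT mice, against 7.54, 7.86, 6.71 and 7.97 in BALB/c mice. The groups did not overlap at either age, although BALB/c replicate 4 of 24 weeks came close to NeuT replicate 2. Means at 12 weeks were 8.44 ± 0.20 in NeuT mice and 7.35 ± 0.17 in BALB/c mice (SD, n = 5 each), a difference of 1.09 (SE 0.17) or 2.12-fold. The 24-week means were 8.43 ± 0.29 in NeuT mice and 7.52 ± 0.57 in BALB/c mice (SD, n = 4 each), a difference of 0.91 (SE 0.19) or 1.88-fold. Of the 18 arrays 4 read below the median of the negative controls, all of them from BALB/c mice, so the BALB/c level is near background and the fold change is uncertain. Without the 3 least correlated arrays the 24-week difference was 0.56, against 1.05 at 12 weeks.

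Dtx1, the Deltex ubiquitin ligase (transcript cluster TC0500003174.mm.2), read 8.52, 8.80, 9.09, 8.85 and 9.44 in NeuT mice of 12 weeks, against 9.50, 9.64, 9.59, 9.84 and 9.35 in BALB/c mice. NeuT replicate 5 was above the lowest BALB/c mouse, so the groups overlapped. In the older mice the signals were 8.48, 9.17, 9.06 and 8.47 in NeuT mice, against 9.54, 9.63, 10.29 and 9.72 in BALB/c mice, with no overlap and with BALB/c replicate 3 the highest. The means at 12 weeks were 8.94 ± 0.34 in NeuT mice and 9.58 ± 0.18 in BALB/c mice (SD, n = 5 each), a difference of -0.64 (SE 0.16) or 0.640-fold. The 24-week difference was -0.997 (SE 0.18) or 0.501-fold, from 8.80 ± 0.37 in NeuT mice and 9.79 ± 0.34 in BALB/c mice (SD, n = 4 each). The differences without the 3 least correlated arrays were -0.62 at 12 weeks and -0.73 at 24 weeks.

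**Figure D1:**
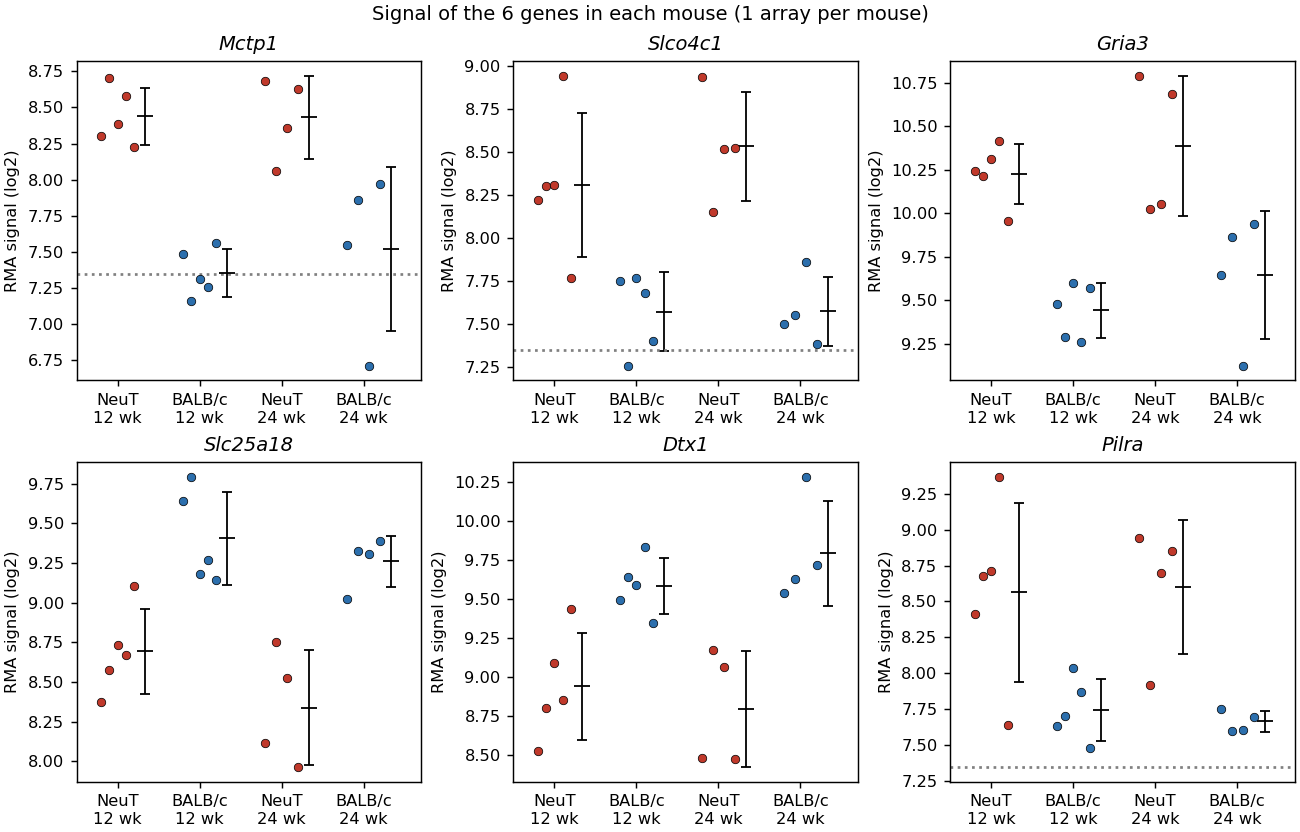
Log2 signals (vertical axis) of the 6 genes in each of the 18 mice, by group on the horizontal axis, with the mean ± SD beside each group, and a dotted line in 3 panels for the median of the negative controls (7.35). In 4 of the 6 panels the 12-week NeuT and BALB/c points do not overlap, and at 24 weeks they do not overlap in any of the 6.

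Groups without overlap were counted for 4 of the 6 genes at 12 weeks and 6 of 6 at 24 weeks. Over all genes the share without overlap was 7.46% at 12 weeks and 6.72% at 24 weeks (0.984% at both ages in one direction), and since the rule used these comparisons nothing is read from that. The effect at 24 weeks minus that at 12 weeks ranged from -0.35 for Dtx1 (95% interval -0.86 to 0.15) to 0.22 for Slco4c1 (-0.29 to 0.73). It was -0.21 for Slc25a18 (-0.67 to 0.25), -0.17 for Mctp1 (-0.70 to 0.36), 0.12 for Pilra (-0.54 to 0.78) and -0.04 for Gria3 (-0.51 to 0.42). All 6 intervals contain 0, which does not show that the NeuT difference is the same at both ages.

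The signals varied more between mice of one group than those of most genes. The within-group SD ran from 0.281 for Slc25a18 and 0.282 for Gria3 to 0.415 for Pilra, against a median of 0.138 over all genes, and at least 98.01% of genes had a lower SD than each of the 6. The same mice stood nearest to the controls for each of the 6 genes, a pattern seen after the values were examined. Several of these genes varied together between mice, so they are not separate observations. How often the pattern holds among other genes was not tested. NeuT replicate 5 of 12 weeks was the NeuT mouse nearest to the BALB/c mean for 6 of 6 genes, at 0.10 for Pilra and 0.87 for Mctp1. Among the 24-week NeuT mice replicate 2 was the nearest for 6 of 6 genes, at 0.26 for Pilra and 0.62 for Dtx1.

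Those mice were also nearest to the controls in transcripts of neutrophils and B cells. The mean log2 signal of 15 neutrophil genes was 9.69 in NeuT replicate 5 of 12 weeks, against 10.54 to 11.13 in the other NeuT mice and 9.58 to 10.20 in BALB/c mice. That of 13 B cell genes was 10.80 in NeuT replicate 5, against 9.44 to 10.61 in the other NeuT mice and 10.72 to 10.95 in BALB/c mice. NeuT replicate 2 of 24 weeks had a neutrophil mean of 10.02, against 10.63 to 10.95 in the other NeuT mice and 9.54 to 10.01 in BALB/c mice. Its B cell mean was 10.77, against 9.64 to 10.51 in the other NeuT mice and 10.81 to 11.11 in BALB/c mice.

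Transcripts of some marrow lineages also differed between NeuT and BALB/c mice. The shares of all genes past the threshold were 3.15% higher and 0.687% lower at 12 weeks, and 1.18% and 0.22% at 24 weeks. Of the 15 neutrophil genes 6 rose in NeuT mice at 12 weeks and 7 at 24 weeks and none fell (median 0.59 and 0.68, limma, Benjamini-Hochberg adjusted p under 0.05), against a median of -0.03 and -0.00014 over all genes. Of the 13 B cell genes none passed at 12 weeks (9 at an unadjusted p under 0.05, median -0.56) and 3 fell at 24 weeks (median -0.84). Of 13 T and NK cell genes 1 rose at 12 weeks, and 3 fell and 1 rose at 24 weeks (median -0.33). Of 7 megakaryocyte genes none passed at either age (limma, 6 at 12 weeks and 0 at 24 weeks at an unadjusted p under 0.05). Monocyte and macrophage genes rose in 5 and fell in 1 of 13 at 12 weeks, and 1 rose at 24 weeks. Of 8 erythroid genes none passed at either age (medians -0.22 and -0.28). Of 8 neutrophil precursor genes 1 rose at each age. Of 12 mast cell, basophil and eosinophil genes 2 rose at 12 weeks and none passed at 24 weeks. Of 9 endothelial genes 1 fell at 12 weeks and none passed at 24 weeks. Of 18 stromal genes none passed at 12 weeks (2 at an unadjusted p under 0.05) and 3 rose at 24 weeks, with list means between 8.28 and 8.53 in NeuT mice and 8.22 and 8.401 in BALB/c mice. No defining marker of these lists reads 0 on this scale. The share of all genes at an unadjusted p under 0.05 is not given, so nothing is read from the unadjusted counts.

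With the neutrophil and B cell list means added to the model, the differences kept their direction for all 6 genes at both ages but their sizes changed unequally. Mctp1 kept a difference of 0.94 (SE 0.23) at 12 weeks and 0.69 (SE 0.27) at 24 weeks, and Gria3 one of 0.54 (SE 0.18) and 0.38 (SE 0.22). For Slco4c1 it was 0.21 (SE 0.15) and 0.35 (SE 0.18). Pilra was at 0.02 (SE 0.16) and 0.0039 (SE 0.19). Slc25a18 was at -0.26 (SE 0.14) and -0.30 (SE 0.16), and Dtx1 at -0.29 (SE 0.15) and -0.45 (SE 0.18). The part that the shift in these lineages has in the differences was not tested. No other lineage list was in this fit. The erythroid list, with which Mctp1 and Gria3 had their largest correlations (below, none past the threshold), was thus not adjusted for.

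**Figure D2:**
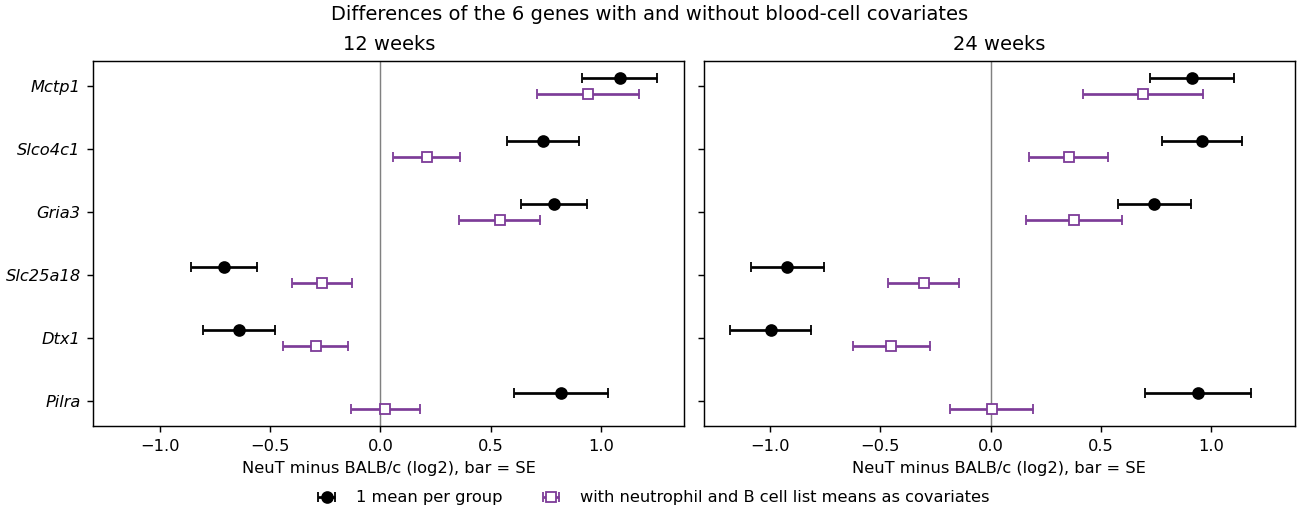
NeuT minus BALB/c difference on the log2 scale (horizontal axis, bars are SE) for each of the 6 genes (rows), at 12 weeks (left) and 24 weeks (right), from the fit with group means alone (filled circles) and with the neutrophil and B cell list means as covariates (open squares). With the covariates the 12-week difference is 0.94 for Mctp1 and 0.02 for Pilra.

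Deviations of each mouse from its group mean are uncorrelated with the differences that chose the genes, and they were correlated with the deviations of 10 lineage list means over the 18 arrays, giving 60 correlations. Pilra followed the neutrophil list (Pearson r 0.87, permutation p 0.00113, adjusted p 0.0339; Spearman rho 0.76, adjusted p 0.0360). Dtx1 followed the B cell list (r 0.82, permutation p 0.000740, adjusted p 0.0339; rho 0.86, adjusted p 0.0318). These 2 passed by Pearson's r, and 4 passed by Spearman's rho.

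The other 2 passed by rank alone. Slco4c1 had r 0.80 with the neutrophil list (permutation p 0.00312, adjusted p 0.0559; rho 0.75, adjusted p 0.0360), and Slc25a18 had r 0.74 with the B cell list (permutation p 0.00373, adjusted p 0.0559; rho 0.74, adjusted p 0.0445). Without the 2 arrays farthest from the list's median, r was 0.59 for Pilra (permutation p 0.0418), 0.78 for Dtx1 (p 0.000870), 0.62 for Slco4c1 (p 0.0286) and 0.63 for Slc25a18 (p 0.0158). The 2 arrays left out were NeuT replicate 5 of 12 weeks and NeuT replicate 2 of 24 weeks for the neutrophil list, and NeuT replicate 1 of 12 weeks and NeuT replicate 2 of 24 weeks for the B cell list.

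Within each age, in 10 mice of 12 weeks and 8 of 24 weeks, r was 0.95 and 0.68 for Pilra, 0.80 and 0.84 for Dtx1, 0.85 and 0.68 for Slco4c1 and 0.59 and 0.92 for Slc25a18. The Pearson call of Pilra ended without any one of NeuT replicates 1, 2, 3, 4 and 5 of 12 weeks, NeuT replicate 2 of 24 weeks, BALB/c replicate 3 of 12 weeks and BALB/c replicate 2 of 24 weeks (adjusted permutation p up to 0.114). That of Dtx1 ended without any one of NeuT replicates 1 and 3 and BALB/c replicate 3 of 12 weeks and BALB/c replicates 1 and 2 of 24 weeks (adjusted permutation p up to 0.0993). Over all 18 such fits r stayed between 0.76 and 0.92 for Pilra and between 0.78 and 0.88 for Dtx1.

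Mctp1 and Gria3 gave no correlation that passed. Mctp1 had r 0.09 with the neutrophil list (adjusted permutation p 0.794), and its largest value was -0.50 with the erythroid list (adjusted p 0.151). Gria3 had r -0.77 with the erythroid list (adjusted permutation p 0.114).

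**Figure D3:**
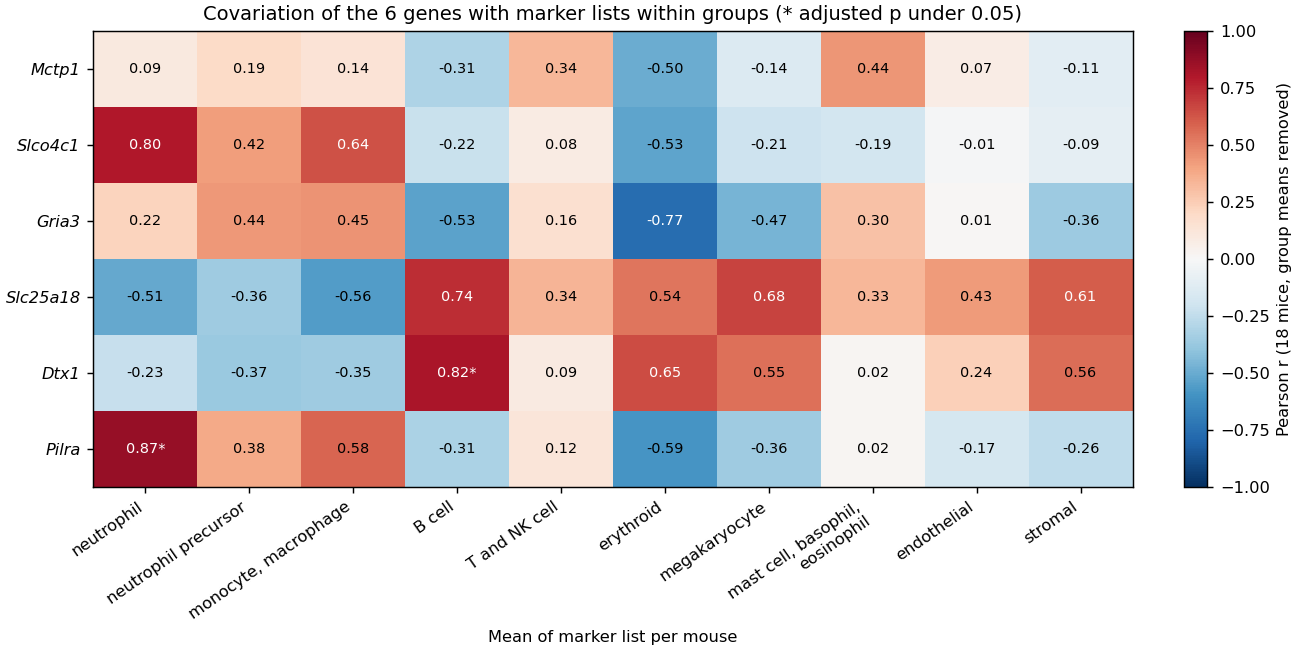
Pearson r over 18 arrays, after subtraction of group means, between each of the 6 genes (rows) and the mean of each of 10 lineage lists (columns), coloured from -1 to 1, with an asterisk at an adjusted p under 0.05. The 2 pairs so marked are Pilra with the neutrophil list (0.87) and Dtx1 with the B cell list (0.82).

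**Figure D4:**
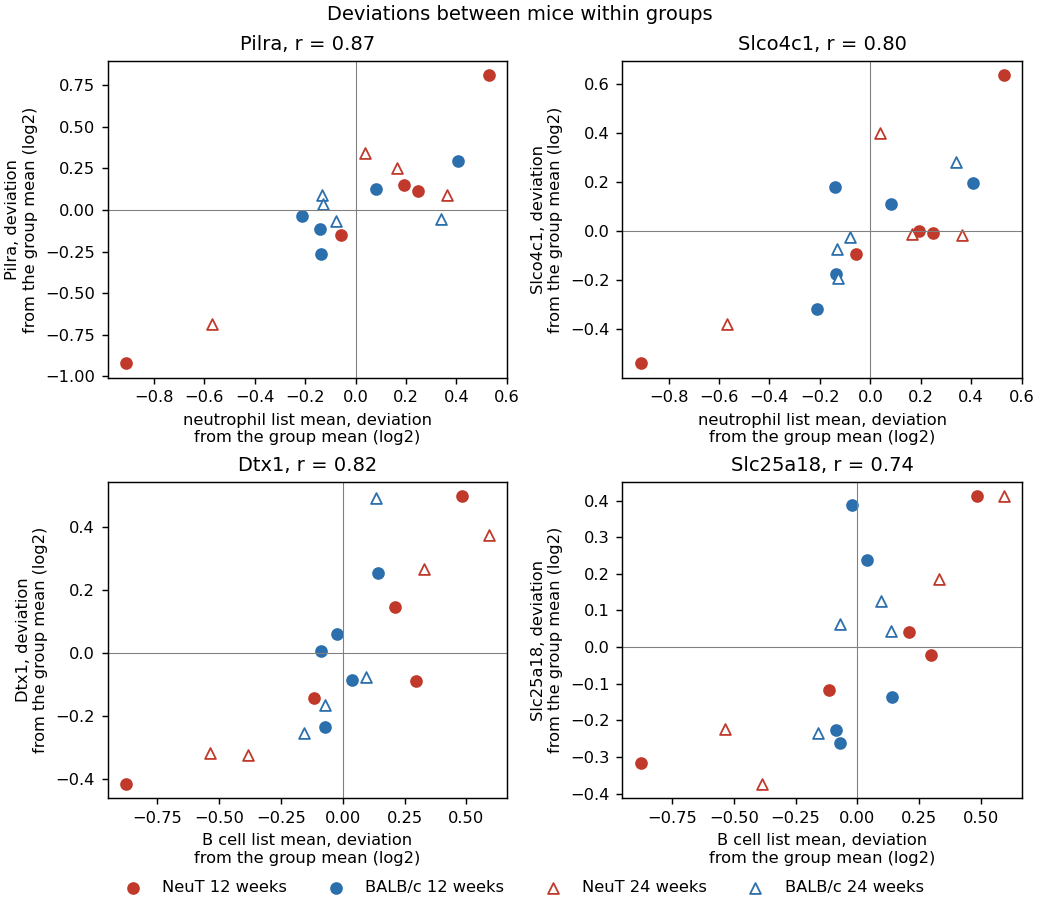
Each panel sets the deviation of a gene's log2 signal from its group mean (vertical axis) against that of a lineage list mean (horizontal axis) in the 18 mice, marked by group. Panels show Pilra and Slco4c1 with the neutrophil list and Dtx1 and Slc25a18 with the B cell list, with r of 0.87, 0.80, 0.82 and 0.74.

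Between the 6 genes, group-centred signals over the 18 arrays, which the genes share along with their lineage makeup, gave r of 0.85 for Mctp1 with Gria3, 0.83 for Slco4c1 with Pilra and 0.69 for Slc25a18 with Dtx1. Dtx1 ran against Gria3 (r -0.81) and Mctp1 (r -0.71). Mctp1 and Slco4c1, both higher in NeuT mice, had r 0.12.

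Of 18449 genes with established names, the 3 most like each of the 6 genes by this r were named. For Pilra these were Rdh12 (r 0.96), Ceacam1 (0.94) and Dhrs7 (0.94), and for Slco4c1 Pglyrp1, a granule protein of neutrophils (0.95), Trem3 (0.92) and Id1 (0.91). Dtx1 was most like Adam19 (0.94), Neil1 (0.93) and Mctp2 (0.93), the relative of Mctp1. Gria3 was most like Pign (0.93), Pex3 (0.93) and Asah1 (0.92), Mctp1 most like Zfp947 (0.91), Odr4 (0.90) and Sh2d1b1 (0.89), and Slc25a18 most like Phlpp1 (0.87), Tmem163 (0.86) and Kcnq5 (0.86).

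None of the 6 genes passed for 24 minus 12 weeks averaged over NeuT and BALB/c mice, a comparison that the choice of genes did not use (limma, adjusted p under 0.05). Of all genes 3.96% passed. At that share a set of 6 genes would usually hold no call, so nothing is read from its absence. Of the 6 genes 1 had an unadjusted p under 0.05. That was Slc25a18, lower by 0.25 at 24 weeks (95% interval -0.48 to -0.02, adjusted p 0.211). Gria3 was at 0.18 (-0.05 to 0.41, adjusted p 0.394), Slco4c1 at 0.11 (-0.14 to 0.37, adjusted p 0.659) and Mctp1 at 0.08 (-0.19 to 0.35, adjusted p 0.777). Dtx1 was at 0.03 (-0.22 to 0.29, adjusted p 0.916) and Pilra at -0.02 (-0.35 to 0.31, adjusted p 0.966), and the sign of both turned under some alternatives. The age differences in NeuT mice alone and in BALB/c mice alone share group means with the comparisons that chose the genes. Their p-values for the members are therefore no independent test. In NeuT mice alone and in BALB/c mice alone no member passed (0.0359% and 0.579% of all genes did), with adjusted p of at least 0.347 and 0.584 (limma). With the lineage means as covariates Slc25a18 did pass in the averaged comparison, at -0.27 (limma, adjusted p 0.0357). With array weights Mctp1 passed in BALB/c mice alone, at 0.43 (limma, adjusted p 0.0328), a value with the limit just given.

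The closest relatives of the 6 genes were not used in choosing them. Of 12 relatives measured, Pilrb2 alone passed for NeuT against BALB/c, higher by 0.60 (SE 0.16, adjusted p 0.0403) at 12 weeks and by 0.84 (SE 0.18, adjusted p 0.0282) at 24 weeks. Pilrb2 encodes an activating partner of Pilra and is encoded near it, with Pilrb1 between them. The means of Pilrb2 were 8.52 ± 0.30 in NeuT mice and 7.92 ± 0.15 in BALB/c mice at 12 weeks (SD, n = 5 each). At 24 weeks they were 8.64 ± 0.53 and 7.79 ± 0.14 in NeuT and BALB/c mice (SD, n = 4 each). Whether probes of Pilra and the Pilrb genes also read each other's transcripts was not tested. Pilrb1, another activating partner, was at 0.20 (adjusted p 0.292) and 0.35 (adjusted p 0.182). With the lineage means as covariates Pilrb2 was at 0.08 and 0.17. The 12-week call ended in 10 of the 18 fits without 1 array, those without NeuT replicate 1, 2, 3 or 4 and without BALB/c replicate 1, 2, 4 or 5 of 12 weeks and without BALB/c replicate 1 or 2 of 24 weeks, and the 24-week call in 4, those without NeuT replicate 1 or 4 or BALB/c replicate 1 or 3 of 24 weeks. The 12-week call also ended with trend and robust variances (adjusted p 0.0608). The 24-week call also ended on the 2 groups alone (adjusted p 0.130) and without the 3 least correlated arrays (adjusted p 0.260). Both calls ended with the lineage covariates (adjusted p 0.906 and 0.888). Of all genes, 4 at 12 weeks and 2 at 24 weeks passed with these covariates. On the 2 groups alone 1 passed at 24 weeks. Few calls of any gene therefore last with the covariates or, at 24 weeks, on the 2 groups alone. With trend and robust variances, by contrast, 817 genes passed at 12 weeks, against 749 in the main fit.

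The other relatives did not pass. Mctp2 was lower by 0.21 (adjusted p 0.262) at 12 weeks and by 0.39 (adjusted p 0.118) at 24 weeks, the direction opposite to Mctp1. With the lineage means as covariates Mctp2 was at -0.04 (SE 0.12) and -0.11 (SE 0.15). Gria1, Gria2 and Gria4, the other AMPA receptor subunits, read below the median of the negative controls on all 18 arrays. Slco4a1 was at 0.01 and 0.02 (adjusted p 0.975 and 0.973) and Slc25a22, the other mitochondrial glutamate carrier, at 0.02 and -0.01 (adjusted p 0.897 and 0.969). Among the Deltex genes Dtx3 was at 0.15 (adjusted p 0.492) and 0.30 (adjusted p 0.333) and Dtx4 at -0.13 (adjusted p 0.535) and 0.17 (adjusted p 0.612), and Dtx2 and Dtx3l lay between -0.0019 and 0.19.

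**Figure D5:**
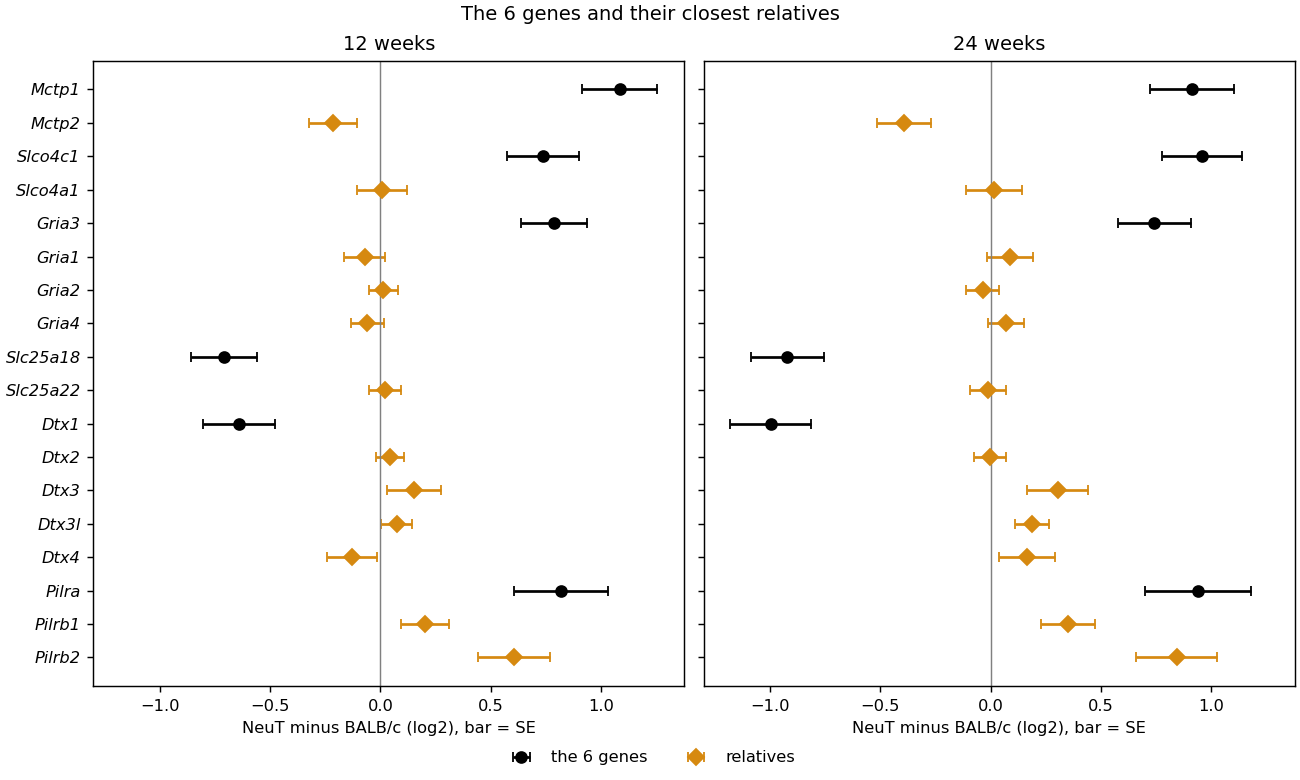
NeuT minus BALB/c difference on the log2 scale (horizontal axis, bars are SE) for the 6 genes (black) and their 12 closest relatives (orange), at 12 weeks (left) and 24 weeks (right). Pilrb2 is the only relative past the threshold, at 0.60 and 0.84, and Mctp2 lies below 0 where Mctp1 lies above it.

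Pathway lists were described without the 6 genes. Their counts at an unadjusted p under 0.05 stand without the share of all genes at that threshold, so nothing is read from them. In the Notch list, which holds ligands, receptors, processing enzymes and targets, 0 of 35 genes passed at either age (limma, 5 and 9 at an unadjusted p under 0.05 at 12 and 24 weeks). Its medians were -0.0074 and -0.0019. The 2 genes with the smallest p at 12 weeks were the gamma-secretase subunit Ncstn at 0.25 (adjusted p 0.133) and the target Hes1 at -0.23 (adjusted p 0.170). At 24 weeks they were Ncstn at 0.29 (adjusted p 0.197) and the ligand Jag1 at 0.23 (adjusted p 0.202).

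Of 27 genes for ionotropic glutamate receptors and their auxiliary subunits, 1 fell at 12 weeks, Cacng2, an auxiliary subunit of AMPA receptors, at -0.35 (adjusted p 0.0186), and none passed at 24 weeks (1 at an unadjusted p under 0.05). The medians were -0.09 and -0.05. The Cacng2 call ended without BALB/c replicate 1, 2 or 4 of 12 weeks and with the lineage covariates (adjusted p 0.575). At 24 weeks the smallest p were those of Pick1, a binding partner of AMPA receptors, at 0.26 (adjusted p 0.235), and Grin2c at 0.16 (adjusted p 0.412).

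Of 14 genes for mitochondrial glutamate and aspartate handling, 1 rose at each age. It was Slc25a12, the aspartate and glutamate carrier, at 0.30 (adjusted p 0.0419) and 0.41 (adjusted p 0.0338), so it was higher in NeuT mice where Slc25a18 was lower. The 12-week call ended in 9 of the 18 fits without 1 array and the 24-week call in 4, and both ended with a further quantile normalisation, cyclic loess or the lineage covariates (adjusted p 0.627 and 0.838). The 24-week call also ended on the 2 groups alone (adjusted p 0.146) and without the 3 least correlated arrays (adjusted p 0.241). Of 13 organic anion transporters none passed at 12 weeks (2 at an unadjusted p under 0.05), with Slco2a1 at -0.21 (adjusted p 0.144) and Slco6c1 at -0.15 (adjusted p 0.220). At 24 weeks Slco3a1 rose, at 0.40 (adjusted p 0.0396), a call that ended in 8 of the 18 fits without 1 array. It also ended with a further quantile normalisation (adjusted p 0.0711), cyclic loess (0.0642), the 2 groups alone (0.143), the lineage covariates (0.838) and without the 3 least correlated arrays (0.215). Of 22 C2-domain genes none passed at either age (2 and 5 at an unadjusted p under 0.05), with Syt2 at -0.27 (adjusted p 0.0978) and Syt1 at -0.17 (adjusted p 0.128) at 12 weeks and Sytl2 at -0.31 (adjusted p 0.118) and Sytl3 at -0.29 (adjusted p 0.109) at 24 weeks.

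The list of paired immune receptors and adaptors holds receptors of several unrelated gene families beside the relatives of Pilra. Of its 32 genes 11 rose at 12 weeks and 4 at 24 weeks, and none fell, with medians of 0.20 and 0.27. At 12 weeks the largest were the C-type lectin receptors Clec4a3 at 1.53 (adjusted p 0.00142), Clec5a at 1.20 (adjusted p 0.00155) and Clec4a2 at 0.98 (adjusted p 0.00498), and Sirpb1c, an activating signal-regulatory protein, at 0.96 (adjusted p 0.00345). None of these 4 calls ended in a fit without 1 array. At 24 weeks the 4 were Clec4a2 at 1.01 (adjusted p 0.0233), Clec5a at 0.88 (adjusted p 0.0430), Pilrb2, and Trem1, an activating receptor of neutrophils and monocytes, at 0.65 (adjusted p 0.0275). Their 24-week calls ended in 4, 12, 4 and 5 of the 18 fits without 1 array, and all 4 ended on the 2 groups alone (adjusted p 0.0641 to 0.156) and without the 3 least correlated arrays (0.123 to 0.455). That of Clec5a also ended with median centring, cyclic loess, quantile normalisation, and trend and robust variances, and that of Trem1 with cyclic loess. With the lineage covariates all 8 named calls, at both ages, had an adjusted p of at least 0.417. In that fit 4 genes of the whole array passed at 12 weeks and 2 at 24 weeks, against 749 and 274 in the main fit. At 24 weeks 1 gene passed on the 2 groups alone, and 15 passed without the 3 least correlated arrays. The loss of these calls in those fits is therefore not particular to these receptors. The neutrophil list means, whose part in these calls was not tested, were 9.69 to 11.13 in NeuT mice and 9.58 to 10.20 in BALB/c mice of 12 weeks, and 10.02 to 10.95 in NeuT mice and 9.54 to 10.01 in BALB/c mice of 24 weeks.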

How the data were processed

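Each of 18 arrays held RNA of another mouse, so replicates are biological, and their numbers follow the order of the records. The authors deposited 1 value per probe set on the log2 scale. The submitters' processing notes name RMA and the Transcriptome Analysis Console, and the sources used here give neither versions nor a genome build. The table has no detection calls, and the number of arrays limits the precision. Of 29129 probe sets 19572 had 1 gene symbol and 9557 were not named here; for 55 genes with several probe sets the one with the highest mean was kept (19505 genes). Each of the 6 genes had 1 probe set.

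A model with 1 mean per group was fitted with limma 3.58.1 in R 4.3.3 (14 residual and 8.68 prior degrees of freedom), two-sided, with Benjamini-Hochberg adjustment over all genes and a threshold of 0.05. A log2 difference of a gene near background understates its change. The members, the 16 lists (265 of 290 genes measured) and the comparisons were chosen with earlier results of these data known. Correlations used values centred on their group means and 100000 two-sided permutations within groups, adjusted over 60 pairs. Named were the 6 genes and their relatives, in each pathway list the largest changes that passed (at most 4) or, with none passing, the 2 lowest p-values, and the 3 most similar genes of each member. On simulated data with 100 changed genes per size, log2 changes of 0.5 and 1 were recovered in 87% and 99% at 12 weeks, 78% and 100% at 24 weeks and 96% and 100% for age. The changed genes were drawn at random and the noise was independent between genes. These shares may not hold for the 6 genes, whose within-group SD (0.281 to 0.415) exceeded the median of 0.138. Alternatives were other normalisations, a filter on dim genes, the mean of probe sets, robust variances with a trend, weighted arrays, fits on 2 groups, lineage covariates and fits without 1 or 3 arrays. Figures were drawn with matplotlib.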

Additional observations from a re-analysis of the deposited data

Results flagged for a closer look

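Within groups, the highest or lowest mouse was set against the others by Dixon's ratio, which marks about 1 in 20 groups by chance. None of 24 groups of the 6 genes was marked, against 12 of 164 groups of the 10 lineage list means and 31 other named genes. The neutrophil list mean of BALB/c replicate 3 of 24 weeks stood apart at 10.01, with the next mouse at 9.59. NeuT replicate 5 of 12 weeks was low in the monocyte and macrophage list mean (9.18, next 9.35) and in Clec5a (9.52, next 10.14) and high in Syt1 (7.78, next 7.62). Among other NeuT mice of 12 weeks, Slco3a1 was low in replicate 4 (9.56, next 9.76), Slco4a1 in replicate 1 (9.77, next 10.33) and Slco6c1 in replicate 3 (6.86, next 7.01). Among NeuT mice of 24 weeks Syt2 was low in replicate 2 (5.77, next 6.09). In BALB/c mice of 12 weeks Dtx3l was low in replicate 1 (9.38, next 9.52), Grin2c in replicate 4 (6.52, next 6.77) and Mctp2 in replicate 5 (8.15, next 8.36), and Trem1 was high in replicate 3 (10.69, next 10.38).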

How the results depend on the processing

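The NeuT minus BALB/c differences of the 6 genes kept their direction in all 336 values under the alternatives tried, and 11 moved by more than the within-group SD. Counts of genes past the threshold moved more, and the cause was not tested. At 12 weeks 749 genes passed, against 2088 with array weights, 4 with lineage covariates and 230 to 1363 without 1 array (fewest without BALB/c replicate 2, most without NeuT replicate 5 of 12 weeks). At 24 weeks 274 passed, against 122 with further quantile normalisation, 119 with cyclic loess, 577 with array weights, 1 on these 2 groups alone, 2 with lineage covariates, 15 without the 3 least correlated arrays and 8 to 641 without 1 array (fewest without NeuT replicate 1, most without NeuT replicate 2 of 24 weeks). Of the called genes 615 of 749 were higher at 12 weeks, against 476 of 689 after quantile normalisation and 504 of 723 after cyclic loess, and 231 of 274 at 24 weeks, against 83 of 122 and 84 of 119. For age averaged over both mouse models 773 passed, against 2893 with array weights and 278 to 1680 without 1 array. For age in NeuT mice 7 passed, against 2 (quantile), 4 (cyclic loess), 1 (median centring), 13 (dim genes left out), 13 (trend and robust variances), 72 (array weights), 25 (covariates), 0 (without the 3 arrays) and 1 to 177 without 1 array. For age in BALB/c mice 113 passed, against 214 (quantile), 186 (cyclic loess), 220 (dim genes left out), 2375 (array weights), 432 (covariates), 1277 (without the 3 arrays) and 0 to 589 without 1 array. The lineage correlations past the threshold were 2, against 6 after quantile normalisation, 5 without the 3 arrays and 0 to 4 without 1 array. Some age values near 0, none past the threshold, changed sign. Averaged over both mouse models, Dtx1 was at -0.012 (array weights), -0.0074 (without the 3 arrays) and -0.049 to 0.096 without 1 array, and Pilra at 0.0048 (quantile), 0.0023 (cyclic loess), 0.048 (covariates), 0.035 (without the 3 arrays) and -0.13 to 0.095 without 1 array. In NeuT mice Mctp1 was at 0.0090 (quantile), 0.0089 (cyclic loess) and -0.091 to 0.12 without 1 array, and Pilra at -0.19 to 0.27 without 1 array. In BALB/c mice Slco4c1 was at -0.092 (array weights), -0.093 (without the 3 arrays) and -0.093 to 0.065 without 1 array, and Pilra at 0.057 (covariates). No paired analysis was possible because the replicate numbers follow the order of the records and pair no mice. Signals within the range of the negative controls limit what is known of all 6 genes (Gria3 exceeded their 95th percentile on 2 arrays, the other 5 on none) and of the other AMPA receptor subunits.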

Other observations

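The genes that lie next to the 6 genes on the chromosomes were examined after their values had been seen. In the RefSeq gene order the 3 measured neighbours on each side gave 36 genes, of which 5 (13.9%) passed for NeuT against BALB/c at 12 weeks and 1 (2.78%) at 24 weeks (limma, adjusted p under 0.05), against 3.84% and 1.4% of all genes. Pilrb2, near Pilra on chromosome 5, passed at both ages, and Pilrb1, which lies between them, passed at neither. The others at 12 weeks were higher too: Oas2, the direct neighbour of Dtx1 on chromosome 5 and an interferon-induced antiviral synthetase, by 0.51 (adjusted p 0.0210), Fam174a near Slco4c1 on chromosome 1 by 0.32 (adjusted p 0.0331), Ppip5k2 near Slco4c1 by 0.28 (adjusted p 0.0439) and Fam172a near Mctp1 on chromosome 13 by 0.24 (adjusted p 0.0464). Oas2 was thus higher beside a gene that was lower, at 0.47 (adjusted p 0.0851) at 24 weeks. Cecr2, beside Slc25a18 on chromosome 6, was at -0.44 (adjusted p 0.298) and -0.82 (adjusted p 0.144) without passing. None of the 6 neighbours of Gria3 on chromosome X passed at either age.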
